A study of Mus musculus with 20 samples.

Results

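The genes described here are the machinery of chromosomal DNA replication, 45 mouse genes chosen by symbol from the proteins that license origins, unwind and copy DNA, supply its building blocks and repackage the new strands. These genes and the other lists below were chosen with earlier results of these data known. Shares of all genes tested are therefore given beside their counts as a reference, not as a test of a list. All 45 were found among the 54532 genes counted in whole spleen, each had counts in all 20 libraries, and all 45 were among the 18362 genes that passed the filter on low counts. The lowest count of a member in any library was 168. RNA was sequenced from spleens of mice aged 4 weeks, either control mice or mice bred on a gluten-free diet. Library IDs were plain numbers (control 1 to 8 and gluten-free 7 to 10) or carried the letter S (control S1, S2, S6, and gluten-free S1, S3, S5, S6, S8). This gave 8 control and 4 gluten-free libraries with plain IDs, and 3 control and 5 gluten-free libraries with S IDs. What the letter stands for is not given in the sources used here, so diet was compared within each ID form, and an effect of the form cannot be told apart from that of any batch it marks. Strain, sex, litter and the composition of the control diet are not given either. Nor is it stated that each library is a separate mouse, so the p-values measure the spread between these libraries, which may be technical in part.

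Replication starts from origins on which the origin recognition complex, Cdc6 and Cdt1 load the ring-shaped Mcm helicase, a step that geminin (Gmnn) blocks once DNA synthesis has begun. Cdc7 kinase, Cdc45 and the GINS complex turn the ring into a moving helicase, RPA coats the single strands, primase and DNA polymerase alpha lay down primers, and polymerases delta and epsilon extend them while held to DNA by the Pcna clamp, which the RFC complex loads. Most of these genes are transcribed as cells enter S phase, in large part through E2F factors. In the spleen of a young mouse, red cell precursors divide alongside lymphoid and myeloid cells.

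Library totals ran from 13626021 (control 6) to 24268237 counts (gluten-free S3), and the 45 genes together held 71658 to 195522 counts in each library. Markers of spleen cells were present: the B cell markers summed to at least 1065 and the erythroblast markers to at least 73585 CPM (counts scaled to the size of the library) in all 20 libraries. Pancreatic acinar markers, from a neighbouring tissue, reached 9891 CPM of the library total in gluten-free S1 and 873 CPM in control 4, against 5.72 to 25.9 CPM in the other 18 libraries. Without those 2 libraries the counts of replication genes called within the plain IDs and in the interaction test below were each 45, as with them. Of all genes tested, 20.3% were then called lower within the plain IDs and 14.4% higher in the interaction. Levels are given as CPM scaled by the TMM method of edgeR, and fold changes as log2 of gluten-free over control with their standard error (SE).

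Within the plain IDs the replication genes were lower with the gluten-free diet throughout the list. All 45 were called lower, with adjusted p from 8.81e-06 to 0.0114 (edgeR quasi-likelihood test, Benjamini-Hochberg adjustment over all genes tested, called under 0.05), where 22.1% of all genes tested were called lower. The median log2 fold change of the 45 genes was -1.04, from -1.58 for Cdc6 to -0.46 for Pold2, and that of all genes tested was 0.03. Their CPM summed to 3238, 3853, 3925 and 3816 in gluten-free 7, 8, 9 and 10. In control 8 the sum was 5359, and in the other 7 control libraries it lay between 7624 and 8980. For 44 of the 45 genes each gluten-free library lay below each control library, where 14.2% of all genes tested showed this, and Pold2 was the exception. As CPM of the library total, with no further scaling, the members summed to 3986 to 4594 in the gluten-free and 5961 to 8097 in the control libraries, so the groups did not overlap on that scale either. In bulk tissue fewer replicating cells and less of these RNAs per cell cannot be told apart.

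**Figure D1:**
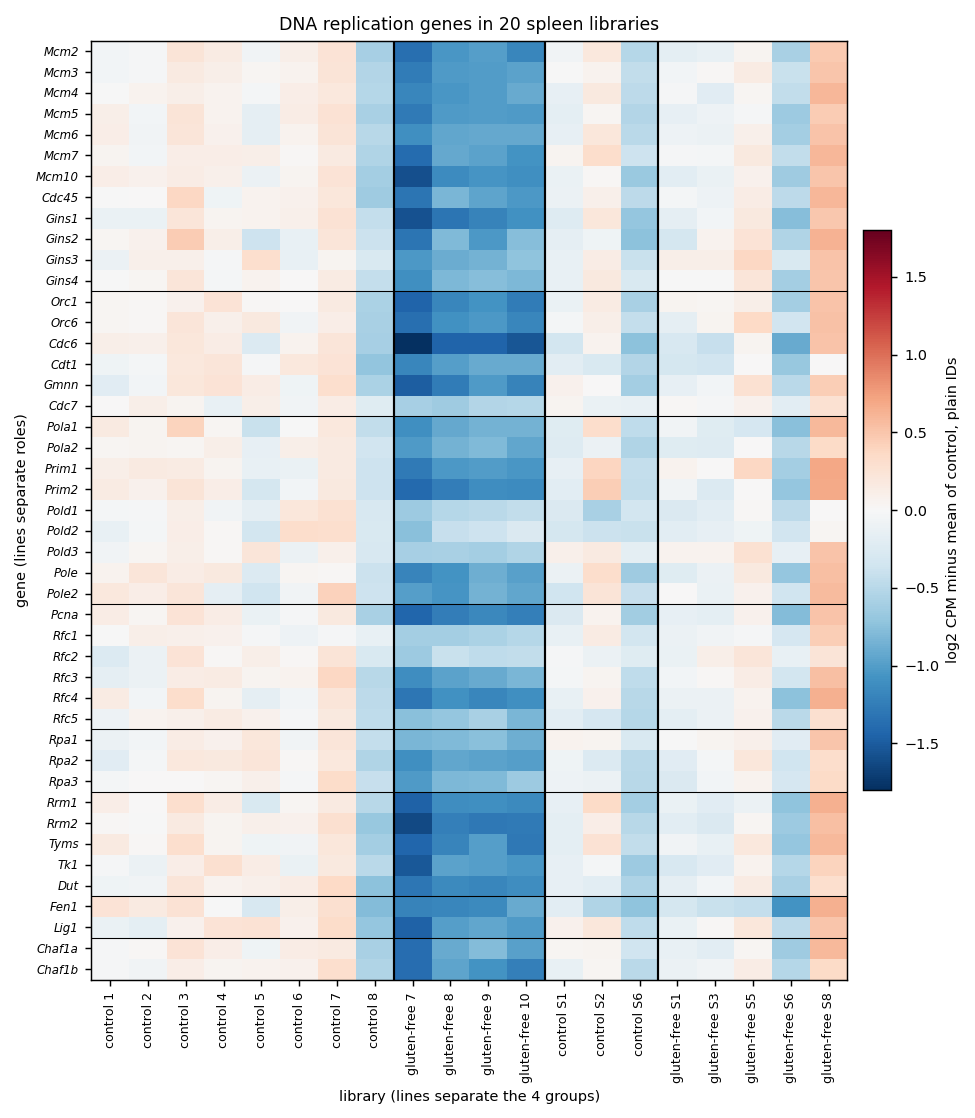
Each cell is the log2 CPM of 1 gene (vertical) in 1 library (horizontal) minus the mean of that gene over the 8 control libraries with plain IDs, with lines between the 4 groups and between the roles. The 4 gluten-free libraries with plain IDs (median shifts from -1.27 to -0.97) form a dark blue block, control 8, control S6 and gluten-free S6 are a paler blue, and gluten-free S8 is red.

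Origin licensing held the lowest fold change of all. Cdc6 (ENSMUSG00000017499, chromosome 11, 98907801 to 98923940, GRCm38), which brings the helicase to origins, had 148.9, 240.7 and 262.0 CPM as the lowest, median and highest of the 8 control libraries, and 62.5, 82.9, 82.9 and 76.9 CPM in gluten-free 7, 8, 9 and 10. The highest gluten-free library thus stood well under the lowest control library, and the log2 fold change was -1.58 ± 0.14 (SE, n = 8 and 4, adjusted p = 8.81e-06 by edgeR). Gmnn (chromosome 13, 24751845 to 24761923), the licensing inhibitor, had 64.6, 98.8 and 118.3 CPM in the control libraries and 34.2, 39.8, 47.3 and 41.3 CPM in the gluten-free libraries, again without overlap (log2 fold change -1.26 ± 0.15, SE). So an activator and an inhibitor of the same step were lower in the same libraries. Among the other licensing genes, Orc1 and Orc6, subunits of the origin recognition complex, had -1.25 and -1.17, and Cdt1, the partner of Cdc6, had -1.02. Cdc7, the kinase that fires loaded origins, had the smallest difference of the 6 licensing genes, at -0.58.

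The helicase genes moved within a narrow band. The 6 subunits of the Mcm ring had log2 fold changes between -1.16 (Mcm2) and -0.98 (Mcm6). Mcm2 (chromosome 6, 88883474 to 88898780) had 286.4, 448.1 and 518.2 CPM as the lowest, median and highest control library, and 170.6, 209.5, 219.4 and 193.0 CPM in gluten-free 7, 8, 9 and 10 (log2 fold change -1.16 ± 0.14, SE, adjusted p = 2.11e-05 by edgeR). The lowest control value came from control 8, and the next lowest control library had 416.0 CPM. Mcm5 (chromosome 8, 75109569 to 75128439) had 268.8, 427.2 and 479.3 CPM in control libraries and 166.2, 198.0, 200.8 and 198.7 CPM in gluten-free libraries (-1.09 ± 0.13, SE). In both ring subunits control 8 stood between the gluten-free libraries and the other control libraries. Cdc45 (chromosome 16, 18780447 to 18811987), which joins the ring at firing, had 48.8, 77.5 and 98.0 CPM in control and 30.6, 42.7, 39.3 and 37.0 CPM in gluten-free libraries (-1.04 ± 0.14, SE). Gins1, a GINS subunit on chromosome 2 (150905400 to 150931280), had the lowest fold change of the 12 helicase genes, -1.30 ± 0.13 (SE), with 39.4, 55.3 and 63.6 CPM in control and 17.9, 21.4, 23.2 and 24.9 CPM in gluten-free libraries. The other GINS subunits, Gins2, Gins3 and Gins4, had -0.99, -0.89 and -0.88, and Mcm10, a firing factor, had -1.23.

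Among the polymerase members the size of the difference varied. Pola1 (chromosome X, 93304767 to 93632155), the catalytic subunit of polymerase alpha, had 68.6, 96.1 and 123.8 CPM as the lowest, median and highest control library and 43.3, 49.3, 52.0 and 51.8 CPM in gluten-free 7, 8, 9 and 10 (-0.95 ± 0.14, SE). Pole (chromosome 5, 110286306 to 110337474), the catalytic subunit of polymerase epsilon, which copies the leading strand, had 68.0, 92.3 and 103.2 CPM in control and 38.9, 42.4, 48.3 and 45.3 CPM in gluten-free libraries (-1.04 ± 0.11, SE). Prim1 (chromosome 10, 128015168 to 128030037), the catalytic primase subunit, had 74.1, 101.9 and 108.0 CPM in control and 39.8, 47.1, 48.0 and 46.7 CPM in gluten-free libraries (-1.10 ± 0.11, SE). In these 3 genes the gluten-free libraries lay below all control libraries, with gluten-free 7 the lowest. The 3 members of polymerase delta, the lagging strand polymerase, differed less, and its accessory subunit gene Pold4, not a member, had 0.41. Pold1 (chromosome 7, 44532746 to 44548849) had 91.8, 110.5 and 135.7 CPM in control and 71.8, 78.8, 80.3 and 82.8 CPM in gluten-free libraries (-0.53 ± 0.10, SE, adjusted p = 0.000617 by edgeR). Pold3 had -0.59. Pold2 (chromosome 11, 5872180 to 5878292) had 27.1, 33.8 and 42.2 CPM in control and 20.1, 25.4, 26.2 and 28.3 CPM in gluten-free libraries (-0.46 ± 0.13, SE, adjusted p = 0.0114 by edgeR). Here gluten-free 10 lay above control 5 and control 8, so the groups overlapped. The Pold2 call was lost without gluten-free 7 (-0.36, adjusted p = 0.0505 by edgeR) and with no scaling beyond the library total (-0.18, adjusted p = 0.230).

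**Figure D2:**
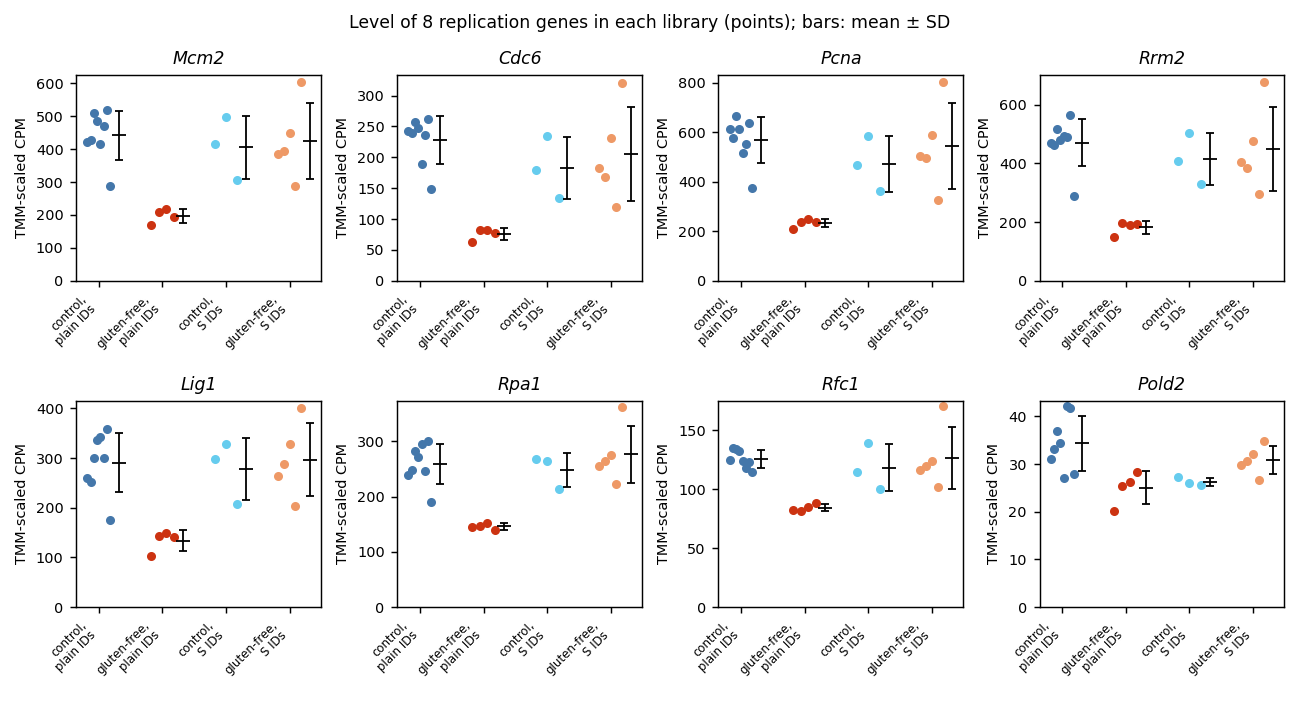
TMM-scaled CPM (vertical, from 0) of 8 replication genes in each library, with points for libraries and a bar for the mean ± SD of each group. For Cdc6 the gluten-free libraries with plain IDs sit between 62.5 and 82.9 CPM, below all 16 others, while for Pold2 they overlap the other groups.

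Within the clamp and its loader the size of the difference varied. Pcna (chromosome 2, 132249162 to 132253314) had 376.3, 595.9 and 665.2 CPM as the lowest, median and highest control library and 209.6, 237.5, 251.1 and 238.5 CPM in gluten-free 7, 8, 9 and 10 (-1.28 ± 0.13, SE, adjusted p = 1.21e-05 by edgeR). Its value is uncertain in one respect: the pseudogene Pcna-ps2 held 66246 counts over all libraries against 167546 for Pcna, and how reads matching both were assigned is not given in the sources used here. Pcna-ps2 itself averaged 216 CPM in control and 102 CPM in gluten-free libraries with plain IDs (-1.08, adjusted p = 6.46e-05 by edgeR). Of the loader, Rfc1 (chromosome 5, 65261850 to 65335670), the large subunit, had 115.0, 124.5 and 134.7 CPM in control and 82.0, 81.9, 85.0 and 88.2 CPM in gluten-free libraries. Its fold change was small, -0.58 ± 0.07 (SE), but it had the smallest SE of the 20 members described by library and the groups did not overlap (adjusted p = 2.80e-05 by edgeR). Rfc2 (chromosome 5, 134581366 to 134601805) had 124.6, 152.4 and 178.0 CPM in control and 95.0, 114.0, 109.4 and 110.2 CPM in gluten-free libraries (-0.50 ± 0.11, SE). Rfc5 had -0.72, whereas Rfc3 and Rfc4, of the same complex, had -0.97 and -1.19. Of RPA, Rpa1 (chromosome 11, 75298166 to 75348324), the large subunit, had 190.9, 259.3 and 299.7 CPM in control and 145.2, 147.3, 152.0 and 138.9 CPM in gluten-free libraries (-0.83 ± 0.11, SE). Rpa2 and Rpa3, its smaller partners, had -1.02 and -0.83.

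The members of deoxynucleotide supply had the lowest median of the roles with more than 2 genes, -1.22 over 5 genes, close to -1.21 for licensing. The 18 further genes of this supply described below had a median of -0.50. Rrm2 (chromosome 12, 24708241 to 24714146), the regulated subunit of ribonucleotide reductase, had 290.1, 485.1 and 563.2 CPM as the lowest, median and highest control library and 149.96, 197.0, 189.5 and 191.8 CPM in gluten-free 7, 8, 9 and 10 (-1.37 ± 0.15, SE, adjusted p = 1.38e-05 by edgeR). Rrm1, the large subunit, had -1.22. Tyms (chromosome 5, 30058202 to 30073617), thymidylate synthase, had 89.8, 140.3 and 168.8 CPM in control and 50.8, 59.9, 68.4 and 55.9 CPM in gluten-free libraries (-1.24 ± 0.14, SE). Tk1 (chromosome 11, 117815526 to 117826092), the thymidine kinase of the salvage route, had 164.4, 237.8 and 278.8 CPM in control and 79.3, 118.0, 115.3 and 110.9 CPM in gluten-free libraries (-1.13 ± 0.14, SE). So the RNA of a synthesis gene and of a salvage gene for thymidine nucleotides was lower in the same libraries. Dut, which removes dUTP, had -1.21. Lig1 (chromosome 7, 13277283 to 13311433), the ligase that joins Okazaki fragments, had 175.8, 300.9 and 358.4 CPM in control and 103.8, 143.1, 149.0 and 140.2 CPM in gluten-free libraries (-1.12 ± 0.16, SE). Fen1, the flap nuclease of the same step, had -1.15. Chaf1a (chromosome 17, 56040439 to 56072289), which deposits histones behind the fork, had 52.7, 83.3 and 94.3 CPM in control and 30.6, 42.4, 46.3 and 40.3 CPM in gluten-free libraries (-1.01 ± 0.14, SE), and its partner Chaf1b had -1.17.

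By role, the median log2 fold change within the plain IDs was -1.22 for deoxynucleotide supply, -1.21 for origin licensing and firing, -1.13 for Okazaki fragment joining, -1.09 for chromatin assembly and -1.06 for the helicase. It was -0.95 for polymerases and primase, -0.85 for the clamp and its loader and -0.83 for RPA. On a scale per length, as CPM per kilobase of gene length, the highest mean levels in control libraries with plain IDs were those of Pcna (237), Rrm2 (169.8), Dut (137) and Mcm7 (113). The lowest were those of Gins2 (6.60), Fen1 (7.42), Pole (8.06) and Chaf1a (9.07). In the gluten-free libraries with plain IDs, Pcna (97.6) and Rrm2 (65.7) were again the highest and Gins2 (3.32) and Fen1 (3.35) the lowest. The strand setting of the counting is not given in the sources used here, and genes on the opposite strand overlapped several members. Reads of Cdc45 and Ufd1, Gins2 and Gse1, Orc6 and Vps35, Fen1 and Tmem258, and Rfc4 and Eif4a2 may be shared on that account, since in each pair the partner held more counts than the member. Eif4a2, the largest of these partners, had 0.17 as its log2 fold change (adjusted p = 0.218 by edgeR) where Rfc4 had -1.19. The other partners were called lower within the plain IDs (adjusted p from 0.000304 to 0.0193 by edgeR). Their fold changes were -0.41 for Ufd1, -0.56 for Gse1, -0.56 for Vps35 and -0.37 for Tmem258. Genes with fewer counts than the member also overlapped on the opposite strand. Among them, Wsb2 held 47.2% of the counts of Rfc5, Lat2 20.3% of those of Rfc2 and Cops6 14.8% of those of Mcm7. Wsb2, Lat2 and Cops6 had log2 fold changes of 0.19, 0.44 and -0.29 (adjusted p = 0.123, 0.123 and 0.0186 by edgeR). The part of shared reads in the values of these members was not tested.

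The promoters of the replication genes were read for the E2F words named below because the members moved together. The RefSeq promoter table (GRCm38.p6, 250 bases before to 50 after each start) held 37 of the 45 genes, with 43 promoters. The words TTTCCCGC, TTTGGCGC, TTTCGCGC and TTTGCCGC, on either strand, were found in 14 of the 43 promoters (32.6%) and in 2.26% of all 32851 promoters in the table. The NF-Y word CCAAT was found in 53.5% and 37.4%, and the word TTTGAA, which occurs in cell cycle homology regions of mitotic promoters, in 16.3% and 17.9%. The 14 genes with an E2F word had a median log2 fold change of -1.01 within the plain IDs, and the 23 matched genes without one had -1.13. A match describes letters, not binding. The stretches upstream of the start are shown for Mcm5, Cdc6 and Pola1, whose E2F words are in capitals, and for Pold2, the member with the smallest difference, which has none. They lie at chr8:75109326-75109508 on the plus strand (Mcm5), chr11:98907983-98908150 on the plus strand (Cdc6), chrX:93632156-93632323 on the minus strand (Pola1) and chr11:5878293-5878442 on the minus strand (Pold2). The Cdc6 stretch lies inside the bounds of the deposited Cdc6 gene, since the RefSeq start used here is downstream of the deposited one.
Mcm5: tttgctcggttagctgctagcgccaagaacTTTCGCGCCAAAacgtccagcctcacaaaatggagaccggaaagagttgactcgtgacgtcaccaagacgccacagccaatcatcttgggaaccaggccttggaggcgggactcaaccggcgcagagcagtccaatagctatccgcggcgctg
Cdc6: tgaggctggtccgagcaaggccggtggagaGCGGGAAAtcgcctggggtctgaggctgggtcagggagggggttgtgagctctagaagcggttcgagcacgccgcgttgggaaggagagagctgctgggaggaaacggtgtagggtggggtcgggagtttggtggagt
Pola1: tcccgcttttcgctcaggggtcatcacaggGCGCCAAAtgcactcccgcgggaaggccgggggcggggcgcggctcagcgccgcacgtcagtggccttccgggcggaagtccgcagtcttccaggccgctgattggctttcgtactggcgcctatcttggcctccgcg
Pold2: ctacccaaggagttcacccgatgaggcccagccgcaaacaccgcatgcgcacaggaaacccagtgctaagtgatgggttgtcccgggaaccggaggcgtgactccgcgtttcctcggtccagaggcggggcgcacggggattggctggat
In Mcm5 the capitals hold 2 overlapping E2F words on opposite strands, 153 and 149 bases before the start. In Cdc6 and in Pola1 a single word begins 138 bases before the start and lies on the minus strand of the gene. The word CCAAT, on either strand, begins 77 and 22 bases before the start in Mcm5, 37 in Pola1 and 47 in Pold2.

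Within the S IDs the same genes did not separate by diet. None of the 45 was called, and 0 had an unadjusted p under 0.05 in edgeR, where 959 of 18362 genes tested did. DESeq2 and limma-voom called 0 members as well. The share called of all genes tested was 0% in edgeR. Log2 fold changes ran from -0.01 (Pola1) to 0.36 (Gins2), with a median of 0.17 against 0.01 over all genes tested, and 44 of 45 were above 0 (adjusted p from 0.908 to 0.998). That median rested on single libraries: it was 0.032 without control S6 (29 of 45 above 0) and 0.039 without gluten-free S8 (27 above 0), and it was 0.29 without control S2 and 0.26 without gluten-free S6. Cdc6 had 178.8, 235.1 and 134.9 CPM in control S1, S2 and S6, and 183.2, 168.2, 232.1, 120.1 and 321.2 CPM in gluten-free S1, S3, S5, S6 and S8 (log2 fold change 0.16 ± 0.29, SE). Mcm2 had 416.0, 496.2 and 305.2 CPM in those control libraries and 385.0, 395.5, 448.3, 289.1 and 604.7 CPM in those gluten-free libraries (0.06 ± 0.23, SE). The gluten-free libraries thus enclosed the control libraries on both sides. Rrm2 behaved likewise, with 409.3, 505.0 and 329.3 CPM in control and 405.7, 385.6, 476.7, 294.1 and 676.3 CPM in gluten-free libraries (0.10 ± 0.25, SE). Pcna had 469.9, 586.9 and 362.4 CPM in control and 505.9, 498.2, 590.5, 327.4 and 804.0 CPM in gluten-free libraries (0.20 ± 0.26, SE). Pold2, which had the weakest difference in the plain IDs, had 27.3, 25.9 and 25.6 CPM in control and 29.8, 30.6, 32.2, 26.7 and 34.8 CPM in gluten-free libraries, with 4 of 5 gluten-free libraries above the highest control library (0.22 ± 0.12, SE, adjusted p = 0.908 by edgeR). The SE was larger here than in the plain IDs for Cdc6, Mcm2, Rrm2 and Pcna, and was about the same for Pold2.

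**Figure D3:**
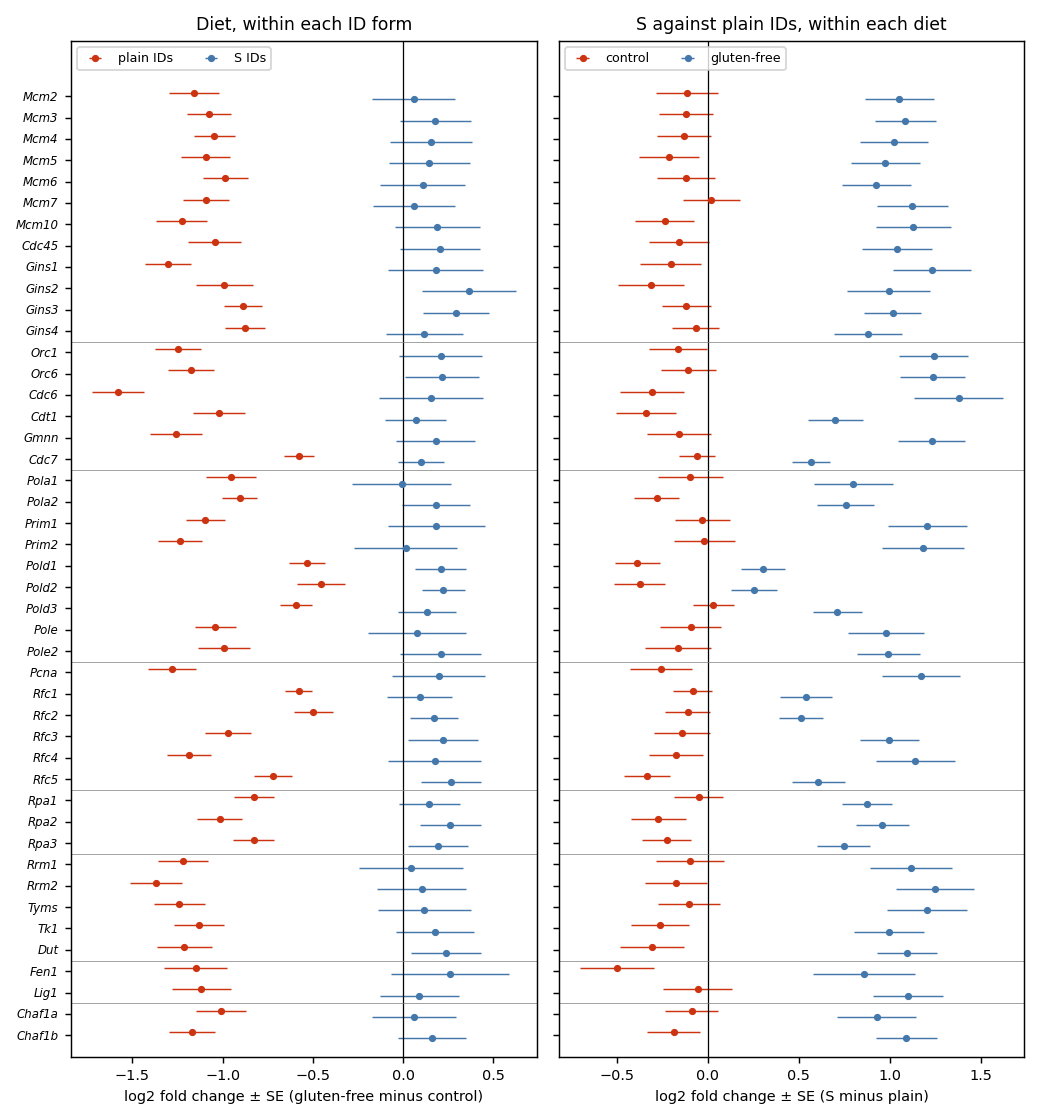
Log2 fold change ± SE (horizontal) of the 45 genes (vertical), for diet within each ID form (left) and for S against plain IDs within each diet (right). On the left the plain IDs lie from -1.58 to -0.46 and the S IDs from -0.01 to 0.36, and on the right the control libraries lie from -0.50 to 0.03 and the gluten-free libraries from 0.25 to 1.38.

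The difference between the diet effects of the ID forms was tested directly, as the interaction of diet and ID form over all 20 libraries. All 45 genes were called with a higher fold change in the S IDs, where 15.4% of all genes tested were (adjusted p from 0.00192 to 0.0264, edgeR quasi-likelihood test). The difference in log2 fold change had a median of 1.22, from 0.68 (Rfc1) to 1.74 (Cdc6), and the median of all genes tested was -0.02. It was 1.74 ± 0.32 for Cdc6, 1.49 ± 0.28 for Pcna, 1.48 ± 0.29 for Rrm2 and 1.44 ± 0.27 for Gmnn (SE). Other members, Gins1 (1.49) among them, lay in the same range. The smallest values were 0.69 ± 0.19 for Pold2, 0.68 ± 0.16 for Rfc2 and 0.68 ± 0.17 for Rfc1. Pola1, with 0.95 ± 0.30, had the highest adjusted p, 0.0264 by edgeR, and was no longer called without gluten-free 7, control S1, control S6 or gluten-free S8 (adjusted p from 0.0503 to 0.0850).

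The same contrast can be read along the ID forms. Among the gluten-free libraries 43 of 45 genes were called higher in the S than in the plain IDs, where 16.6% of all genes tested were (median log2 fold change 1.00, edgeR). The 2 others, named after their values were seen, were the polymerase delta subunits Pold1 (0.30 ± 0.12, SE, adjusted p = 0.0723) and Pold2 (0.25 ± 0.12, SE, adjusted p = 0.134). Among the control libraries 0 of 45 were called between the ID forms in edgeR, DESeq2 or limma-voom, where edgeR called 2.16% of all genes tested. In edgeR 5 members had an unadjusted p under 0.05, where 2936 of 18362 genes tested did. The median log2 fold change of the 45 genes was -0.16. That median was -0.012 without control S6 (25 of 45 below 0) and -0.31 without control S2, and without control 8 it was -0.21, with 15 members at an unadjusted p under 0.05 and 1 called. With all control libraries the lowest fold changes were those of Fen1 (-0.50), Pold1 (-0.39) and Pold2 (-0.38). For 42 of 45 genes each of the 4 gluten-free libraries with plain IDs lay below each of the other 16 libraries, where 10.2% of all genes tested did, the exceptions being Pold1, Pold2 and Fen1. These comparisons share libraries with those above and are not independent of them. The ID forms also differed in the share of counts from the mitochondrial genome. Among gluten-free libraries it was 1.40% to 2.17% with plain IDs and 2.23% to 4.15% with S IDs, without overlap. Among control libraries it was 1.12% to 2.14% and 1.92% to 2.51%. The part of this difference in the contrast was not tested.

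Pooled over both ID forms, with the form as a term, 0 of 45 genes were called in edgeR or limma-voom, and 0% of all genes tested were in edgeR. All 45 had a negative log2 fold change (median -0.57, from -0.87 for Cdc6 to -0.17 for Pold2). In edgeR 41 had an unadjusted p under 0.05, where 4559 of 18362 genes tested did, and adjusted p ran from 0.0979 to 0.368. DESeq2 called 31 of them, where it called 4.81% of all genes it fitted. The edgeR count rested on single libraries: without control S6 it was 42 (20.2% of all genes tested), and without gluten-free S8 it was 39 (15.9%).

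Within groups the 45 genes varied together from library to library. Relative to the mean of the control libraries with plain IDs, the median shift of the 45 genes in log2 CPM was -1.27 in gluten-free 7, -0.99 in gluten-free 8, -0.97 in gluten-free 9 and -0.98 in gluten-free 10. It was -0.50 in control 8, which was the lowest of its group for 44 of 45 genes, and between -0.02 and 0.21 in the other 7 control libraries with plain IDs. Control S6, with -0.48, was the lowest of the 3 control S libraries for 44 genes. Gluten-free S6, with -0.52, was the lowest of the 5 gluten-free S libraries for 45 genes, and gluten-free S8, with 0.51, the highest for 44. Each group with S IDs thus held a library about as low as control 8, and none as low as the 4 gluten-free libraries with plain IDs.

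Markers of red cell precursors moved with the replication genes. Of 21 erythroblast markers 21 fell with the gluten-free diet within the plain IDs (median log2 fold change -1.36, where 22.1% of all genes tested fell), and their median within the S IDs was -0.03. Their mean log2 CPM ran from 8.77 to 9.53 in the gluten-free and from 9.83 to 10.79 in the control libraries with plain IDs. With S IDs it ran from 9.94 to 10.96 in the control and from 9.83 to 10.98 in the gluten-free libraries. Summed as CPM of the library total, where globin genes weigh most, the list ran from 73585 to 123158 in the gluten-free and from 99911 to 178074 in the control libraries with plain IDs, and none of its genes was at 0 in every library. Control 8, control S6 and gluten-free S6 were the lowest of their groups in both lists, gluten-free S8 was the highest of its group in both, and gluten-free 7 was the lowest of all libraries in both, by mean log2 CPM. With the mean of the erythroblast markers as a covariate, 1 of 45 replication genes was called lower within the plain IDs, Cdc6 (-0.68, adjusted p = 0.0333 by edgeR), where 2.09% of all genes tested were. The median was then -0.29, 17 members had an unadjusted p under 0.05, and 2 members lay above 0, Pold2 (0.18) and Rfc2 (0.08). With the same covariate in the S IDs the median was 0.19, with 45 of 45 above 0 and 18 at an unadjusted p under 0.05 in edgeR. There 0 members were called, where 0% of all genes tested were. No count of all genes at an unadjusted p under 0.05 is given for either fit. The marker mean does not overlap between the diets in the plain IDs, so diet and marker level cannot be told apart there, and the part of erythroblast number in the result was not tested.

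**Figure D4:**
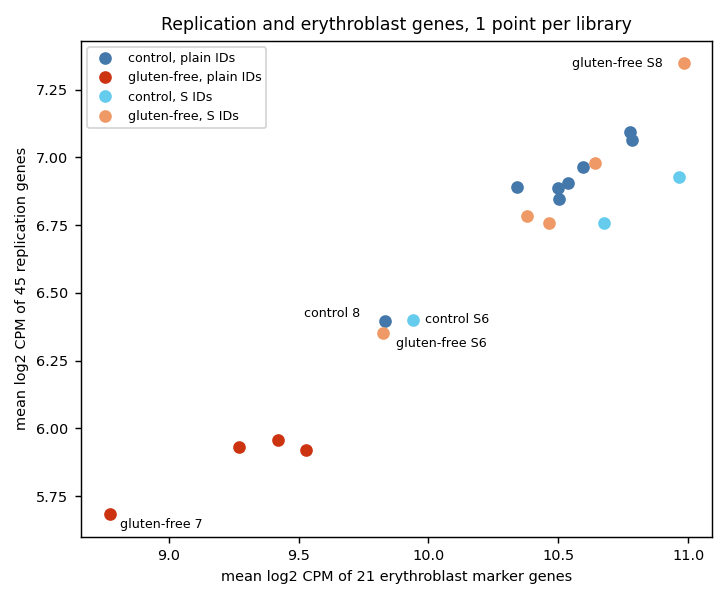
Mean log2 CPM of the 45 replication genes (vertical) against that of the 21 erythroblast markers (horizontal), with 1 point for each of the 20 libraries, coloured by group. The 4 gluten-free libraries with plain IDs lie at the lower left, control 8, control S6 and gluten-free S6 lie next to them, and gluten-free S8 lies at the upper right.

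Markers of other spleen cells, among them mature lymphocytes as well as dividing or blood-forming cells, were called higher more often than lower in the plain IDs. Neutrophil precursor markers rose in 9 of 9 (median 1.73), B cell precursor markers in 7 of 7 tested (1.52) and megakaryocyte markers in 7 of 7 tested (1.01), where 17.5% of all genes tested were called higher. T cell markers rose in 11 of 11 (0.72), germinal centre B cell markers in 4 of 7, with 1 lower (0.36), progenitor markers in 3 of 8 (0.26) and B cell markers in 1 of 9 (0.47). The germinal centre list summed to between 84.8 and 95.8 CPM in the gluten-free and between 44.9 and 70.0 CPM in the control libraries with plain IDs. Within the S IDs none of these markers was called. Medians of the neutrophil precursor, B cell precursor and megakaryocyte lists were -0.24, -0.002 and -0.57 there. For S against plain IDs they were 0.93, 1.05 and 1.47 among control libraries, and -1.06, -0.46 and -0.08 among gluten-free libraries. In the control libraries all 7 megakaryocyte markers tested were called higher with S IDs, where 301 of 18362 genes tested were. The part of any of these cells in the level of the replication genes was not tested.

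Other genes of replication and the cell cycle were counted in 6 further lists, against 22.1% of all genes tested called lower and 17.5% called higher within the plain IDs. Of 41 further genes of the replication machinery 32 fell and 1 rose within the plain IDs (median -0.79). The lowest were Atad5, which unloads Pcna (from 99.9 to 40.1 CPM, -1.32), and the helicase gene Recql4 (-1.28). The highest were Pold4, the small accessory subunit of polymerase delta, which rose from 48.3 to 64.2 CPM (0.41, adjusted p = 0.0175 by edgeR), and Ten1, of the CST complex at telomeres (0.04, adjusted p = 0.776). Of 18 further genes of deoxynucleotide supply 11 fell and 2 rose (median -0.50). The salvage kinase gene Dck had -1.13. Shmt1, a folate enzyme gene, rose by 0.39, and Rrm2b, the reductase subunit used outside S phase, had 0.40 (adjusted p = 0.0672 by edgeR).

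Of 20 genes of S phase chromatin and the replication checkpoint 18 fell (median -1.01). The lowest were Fanci, of the Fanconi crosslink repair pathway (-1.18), and Slbp, which binds histone mRNA (-1.17), while the checkpoint kinase gene Atr and its partner Atrip had 0.14 and -0.15 (adjusted p = 0.418 and 0.307 by edgeR). Of 25 genes of E2F factors and cyclins 20 fell and 2 rose (median -0.72). Ccne2 and Ccne1, the E cyclins that drive entry into S phase, had -1.60 and -1.56, as low as Cdc6. Those that rose were Ccnd2, a D cyclin gene (0.47), and the cyclin kinase inhibitor gene Cdkn1c (from 2.25 to 3.54 CPM, 0.66). All 25 mitosis genes fell (median -1.10), from Mki67 (-1.26) and Ncapg (-1.26) to Bub1b (-0.93) and Aurkb (-0.92). Of 10 genes that replicate mitochondrial DNA 1 fell (median -0.04), Mgme1, a mitochondrial exonuclease gene (-0.54). The others named by rule were Top3a (-0.22), Top1mt (0.23) and Polg2 (0.35), with adjusted p of 0.105, 0.255 and 0.0879 by edgeR. Within the S IDs none of these 6 lists had a called gene in edgeR, and their medians lay between 0.01 and 0.15.

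**Figure D5:**
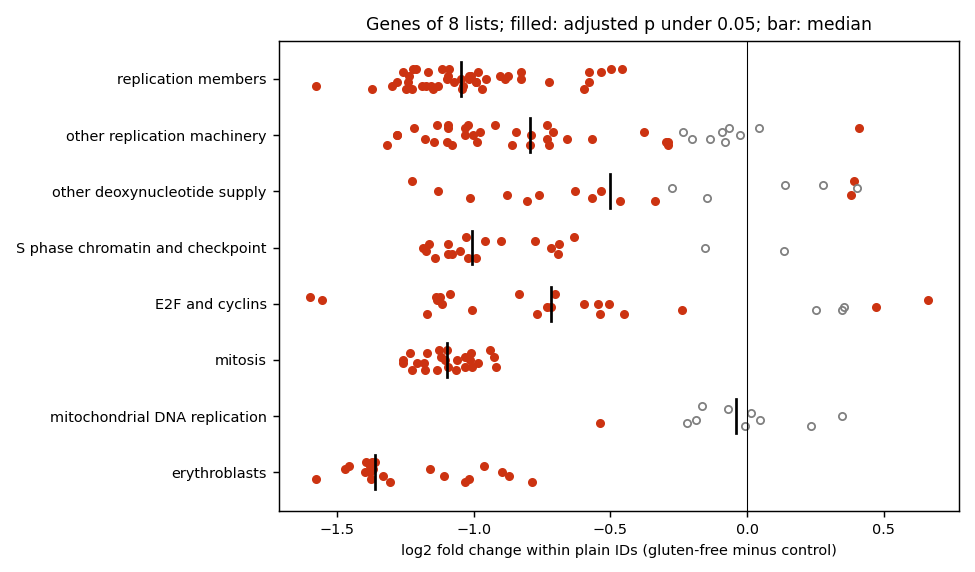
Log2 fold change within the plain IDs (horizontal) of each gene in 8 lists (vertical), with filled points for adjusted p under 0.05, open points otherwise and a bar at the median of the list. The replication members (median -1.04), the mitosis genes (-1.10) and the erythroblast markers (-1.36) are filled and left of 0 throughout, and the mitochondrial replication genes (-0.04) surround 0.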

How the data were processed

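Whole spleen RNA was extracted with a lipid tissue kit and sequenced on an Illumina NovaSeq instrument, per the labels' protocols. The authors deposited raw counts per gene, with gene length and position, as whole numbers that had not been normalized. Per the submitters' processing notes, CASAVA, HISAT2 2.0.5, featureCounts 1.5.0 and GRCm38 (mm10) were used. Strand setting, annotation release and treatment of reads matching several places are not given in the sources used here.

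Counts were analysed in R 4.3.3 with edgeR 4.0.16 (TMM scaling, filterByExpr over the 4 groups of diet and ID form, quasi-likelihood test, two-sided), with Benjamini-Hochberg adjustment over the 18362 genes tested and calls at adjusted p under 0.05. Each diet or ID form comparison used its own libraries, and the pooled and interaction fits used all 20. SE was taken as the size of a log2 fold change divided by the root of its F statistic, and log2 CPM used a prior count of 2. DESeq2 1.42.0 and limma-voom (limma 3.58.1) were alternatives, with other scalings and filters, libraries left out, an erythroblast covariate and a block over shared IDs. Scaling by the library total alone, and leaving out control 4 and gluten-free S1, were added after seeing the data. The fit within the plain IDs alone was also run on simulated counts, in which genes varied independently of each other. No result here draws on that run.

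Libraries of the same group were distinct: over 47 pairs the chi-square divided by its degrees of freedom was 6.10 to 106. Counting noise is small at this depth. Members, lists and naming rule were chosen with earlier results of these data known. Values by library are given for 16 fixed members and for the 3 lowest and 3 highest fold changes within the plain IDs, and of each further pathway list the 2 lowest and 2 highest are named, except 1 gene that is not reported here. Promoter words were searched in the RefSeq table (GRCm38.p6), with no test, and 8 members have no entry there.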

Additional observations from a re-analysis of the deposited data

Results flagged for a closer look

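The diet effect differed between the ID forms for 45 of 45 members in the interaction test of edgeR, lower with the gluten-free diet in the plain IDs and near 0 in the S IDs. In that test 15.4% of all genes tested were called with a higher fold change in the S IDs. Some single libraries stood far from the rest of their group (a gap to the nearest library above the Dixon limit at 95%). Control 8 did so on the low side for Mcm2 (286 CPM, nearest library 416), Rrm2 (290.1 CPM, nearest 462.9) and Chaf1a (52.7 CPM, nearest 74.9). Gluten-free 7 did so on the low side for Mcm5 (166 CPM, nearest 198), Prim1 (39.8 CPM, nearest 46.7) and Rrm2 (149.96 CPM, nearest 189). These were 6 of 60 tests over 20 members and the 3 groups of 4 or more libraries. Chance gives about 1 in 20, and the members vary together, so the tests are not independent.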

How the results depend on the processing

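Within the plain IDs 44 or 45 members were called lower under the other scalings, filters and tools and without any single library (medians from -1.118 to -0.9997 without 1 library). In these settings the share of all genes tested called lower ran from 10.6% (no expression filter) to 26.0% (mean of at least 1 CPM). With no scaling beyond the library total the median of all genes tested moved from 0.03 to 0.31, that of the members to -0.76, and Pold2 was no longer called. In that setting the median was 0.92 for the interaction and 0.71 for S against plain IDs among gluten-free libraries, where Pold2 reversed to -0.018. With the erythroblast covariate 1 member was called within the plain IDs, the median was -0.29, and Pold2 and Rfc2 reversed to 0.18 and 0.079. The pooled count was 31 in DESeq2 and from 0 to 42 without 1 library. The count between ID forms among control libraries was from 0 to 1 without 1 library, the 1 being without control 8, where 2.84% of all genes tested were called. For the interaction 44 or 45 members were called without any single library (medians from 1.06 to 1.38). The cause of these changes was not tested.

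The 4 IDs 7, 8, S1 and S6 occur in both diets. Over all genes tested, deviations of same-numbered libraries from their group means correlated from -0.20 (ID 8) to 0.38 (ID S6). Of 8 libraries 2 correlated best with their own number, control S6 and gluten-free S1. For the members, control S6 was the lowest of its group for 44 genes and gluten-free S6 for 45. With 4 shared IDs, whether the number marks a pairing cannot be decided, and it was not treated as one. With the ID as a block over those 8 libraries, 0 members were called lower within the plain IDs, where 0% of all genes tested were. Their median was -0.90 against 0.06 over all genes tested, with 45 below 0. In the interaction of that fit 0 members were called, where 0.0327% of all genes tested were, and the members' median was 0.88 against -0.04. That fit holds fewer libraries.

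With 3 and 4 libraries in the smaller groups the spread between libraries, not the count depth, limits the comparisons. Lack of a call in the S IDs does not show equal levels.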
